A study of Mus musculus with 8 samples.

Results

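Vitamin A enters cells as retinol, which retinol dehydrogenases oxidize to retinal and retinal dehydrogenases oxidize further to retinoic acid. Retinoic acid binds nuclear receptors that sit on DNA as heterodimers, and CYP26 enzymes break it down. In the testis it drives the commitment of spermatogonia to differentiation and meiosis, with Sertoli cells and later germ cells both able to make it. The genes described here are the retinal dehydrogenase genes Aldh1a1, Aldh1a2 and Aldh1a3, the retinal reductase gene Dhrs3, the retinol importer gene Stra6, and 2 genes known to respond to retinoic acid, Tgm2, a transglutaminase gene, and Stra8, a gene of germ cells entering meiosis. They were chosen by symbol, and all their probe sets were taken, which gave 14 of the 45101 probe sets on the array for 7 genes. Aldh1a1, Aldh1a2, Dhrs3, Stra6 and Stra8 had 1 probe set each, Aldh1a3 had 3 and Tgm2 had 6.

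Whole testes of P28 males (postnatal day 28) of mixed background, C57BL6/6J and 129, gave the RNA, with 1 array per sample. Every mouse, controls included, carried Dmrt1 flox/flox alleles. The groups were mice with SF1-cre (n = 4, called Sf1-Cre), mice with Dhh-cre (n = 2) and mice with no Cre (n = 2, called control). The submitters describe both promoters as specific to Sertoli cells, although, as general background, Nr5a1 (Sf1) is also active in Leydig cells and Dhh in Schwann cells. The labels call the samples biological replicates and do not say whether mice were pooled.

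The whole-testis signal of the gene that was to be deleted was not lower than control in 1 Cre group. Dmrt1, which encodes a DM-domain regulator found in Sertoli cells and spermatogonia, read log2 7.10, 7.89, 7.63 and 7.53 on the Sf1-Cre arrays and 10.43 and 9.94 on the arrays labelled Dhh-Cre, against 8.50 and 8.76 on the control arrays. It was thus lower than control in Sf1-Cre (-1.09 ± 0.25 SE, limma adjusted p = 0.00368) and higher than control on the arrays labelled Dhh-Cre (1.55 ± 0.28 SE, limma adjusted p = 0.00117). No source used here places this probe set inside or outside the floxed stretch. Other genes did set the arrays labelled Dhh-Cre apart from control. The granulosa marker Foxl2os read 9.60 and 9.39 on them, against 2.30 and 1.79 in control, and 15 of 16 spermatid markers fell. Which cells gave the Dmrt1 signal, and whether the labels hold, was not tested. The epididymis gene Spink8 was at log2 10 or above on 3 arrays, at 12.05 and 10.49 on Sf1-Cre arrays 1 and 3 and at 11.55 on array 1 labelled Dhh-Cre, so where leaving out these 3 ended a call on a retinoid gene difference given here, that is said beside it. Median intensity ran from 15.2 to 15.9 on the 6 Cre arrays and from 13.7 to 14.1 on the control arrays. Precision is set by how few arrays there are.

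Against control, retinoid genes moved on an array where most genes moved. In Sf1-Cre, 9 of the 11 member probe sets that could be tested were higher, 1 was lower (Stra6, under the floor in both groups) and 1 did not pass, where 77.6% of all 25761 tested probe sets passed (45.9% higher and 31.6% lower). On the arrays labelled Dhh-Cre, 10 of the 11 were higher, Stra6 among them through its level on these arrays alone, and 1 was lower, where 78.0% of all tested probe sets passed (49.1% higher and 28.8% lower). The median over the 7 genes was 1.55 in Sf1-Cre and 2.60 on the arrays labelled Dhh-Cre, and over all tested probe sets it was 0.36 and 0.57 in those comparisons. Sf1-Cre arrays and control arrays did not overlap for 83.9% of tested probe sets (49.5% with Sf1-Cre above), and arrays labelled Dhh-Cre and control arrays did not for 90.6% (57.1% with the Dhh-Cre label above). Both Cre comparisons use the same 2 control arrays.

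Levels and differences here are log2 of the deposited intensity, and a level of 4 is the floor below which a probe set was not used for a fold. Passing means an adjusted p under 0.05 from limma over all tested probe sets, and the error beside a difference is its standard error (SE). Directions depend on how arrays are scaled. When arrays were centred on a housekeeping list or a Sertoli list instead, the median of all probe sets against control lay between -0.22 and -1.88, so the smaller rises below are relative to the deposited scale. Whole testes were measured, so fewer cells of a type and less RNA per cell cannot be told apart.

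**Figure D1:**
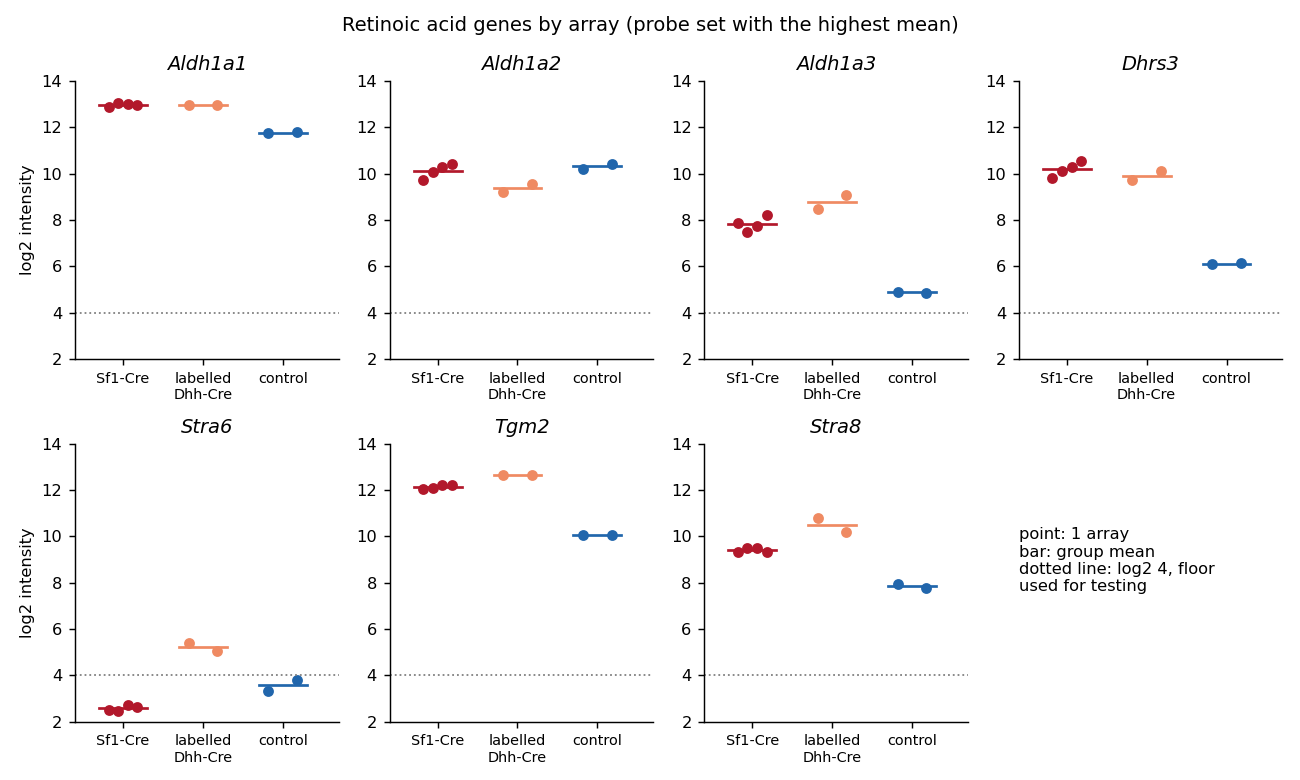
Log2 intensity (vertical axis) of each gene on every array, by its probe set with the highest mean, with Sf1-Cre left, arrays labelled Dhh-Cre in the middle and control right; points are arrays, bars are group means and the dotted line is the floor of log2 4. Aldh1a3, Dhrs3, Tgm2 and Stra8 lie above control on all 6 Cre arrays, Aldh1a2 overlaps control in Sf1-Cre, Aldh1a1 lies above control on this scale but not with arrays centred on the median housekeeping level, and Stra6 lies above the floor only on the arrays labelled Dhh-Cre.

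The 3 retinal dehydrogenase genes, which make retinoic acid, differed in direction and size. As background, Aldh1a1 is known from Sertoli cells and Aldh1a2 from germ cells of the mouse testis, while no cell source is assumed here for Aldh1a3. Aldh1a3 rose most against control in both comparisons, Aldh1a1 rose by about the same amount in both, and Aldh1a2 fell on the arrays labelled Dhh-Cre without passing in Sf1-Cre.

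Aldh1a1 (probe set 1416468_at) read 12.87, 13.04, 13.03 and 12.98 in Sf1-Cre and 12.98 and 12.95 on the arrays labelled Dhh-Cre, against 11.75 and 11.78 in control. All 6 Cre arrays lay above both controls, and the Cre groups overlapped each other. Group means were 12.98 ± 0.08 in Sf1-Cre (SD, n = 4), 12.96 ± 0.02 on the arrays labelled Dhh-Cre (SD, n = 2) and 11.76 ± 0.02 in control (SD, n = 2). Aldh1a1 rose 2.32-fold in Sf1-Cre (1.22 ± 0.13, limma adjusted p = 6e-05) and 2.29-fold on the arrays labelled Dhh-Cre (1.20 ± 0.15, limma adjusted p = 0.000152). Between the Cre groups the difference of Sf1-Cre minus the arrays labelled Dhh-Cre was 0.02 ± 0.13 (limma adjusted p = 0.944). The direction against control rested on the scale: centred on the median housekeeping level, the difference was -0.48 in Sf1-Cre and -0.44 on the arrays labelled Dhh-Cre, and centred on the median of housekeeping gene changes it was 0.36 and 0.41, neither of which passed.

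Aldh1a2 (1422789_at) read 9.73, 10.06, 10.30 and 10.44 in Sf1-Cre and 9.23 and 9.56 on the arrays labelled Dhh-Cre, against 10.20 and 10.44 in control. The Sf1-Cre arrays overlapped the control arrays, and both arrays labelled Dhh-Cre lay below all others. The difference from control was -0.19 ± 0.22 in Sf1-Cre (limma adjusted p = 0.458), and it passed, as a fall, under each of the 4 centrings on marker or housekeeping genes (-1.04 to -2.43). Aldh1a2 fell 1.90-fold on the arrays labelled Dhh-Cre (-0.93 ± 0.26, limma adjusted p = 0.0105). That call was lost without control replicate 2 (-0.81, adjusted p = 0.0665), without array 1 labelled Dhh-Cre (-0.76, adjusted p = 0.0665) and without the 3 arrays high in Spink8 (-0.76, adjusted p = 0.054). Sf1-Cre minus the arrays labelled Dhh-Cre was 0.74 ± 0.22, just short of passing (limma adjusted p = 0.0508), and it passed under 6 of 21 alternatives, with adjusted p from 0.00257 to 0.293.

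The promoters of Aldh1a1 and Aldh1a2 are shown because these sister genes moved apart. Each run is the 250 bases before the gene start in RefSeq (GRCm38.p6, plus strand), 5′ to 3′, at chr19:20601718-20601967 for Aldh1a1 and chr9:71215539-71215788 for Aldh1a2. RefSeq gives 2 starts for Aldh1a1, and the downstream one is shown. Capitals mark the octamer bound by POU proteins.
Aldh1a1: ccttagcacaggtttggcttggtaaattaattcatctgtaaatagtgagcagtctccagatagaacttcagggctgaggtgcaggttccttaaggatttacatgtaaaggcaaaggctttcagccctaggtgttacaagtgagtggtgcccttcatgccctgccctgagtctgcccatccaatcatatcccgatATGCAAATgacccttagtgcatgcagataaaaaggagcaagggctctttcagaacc
Aldh1a2: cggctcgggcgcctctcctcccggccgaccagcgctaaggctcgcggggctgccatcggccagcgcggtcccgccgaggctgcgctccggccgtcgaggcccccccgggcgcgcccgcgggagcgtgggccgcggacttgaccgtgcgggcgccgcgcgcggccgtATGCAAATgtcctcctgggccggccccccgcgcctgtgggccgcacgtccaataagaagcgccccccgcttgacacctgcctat

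The octamer ATGCAAAT lies at 56 to 49 bases before the shown start of Aldh1a1, with no match in its other window, and at 84 to 77 bases before that of Aldh1a2, and 1.74% of all RefSeq windows held it on either strand. The motif was chosen after the sequences were seen. The same letters stand before a gene that rose in both comparisons and one that fell in 1, and nothing is drawn from that about any factor.

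Aldh1a3 (1448789_at) read 7.89, 7.49, 7.76 and 8.20 in Sf1-Cre and 8.48 and 9.08 on the arrays labelled Dhh-Cre, against 4.90 and 4.87 in control. The 3 groups did not overlap, with the arrays labelled Dhh-Cre highest and control lowest. Aldh1a3 rose 7.70-fold in Sf1-Cre (2.95 ± 0.24, limma adjusted p = 1.18e-05) and 14.8-fold on the arrays labelled Dhh-Cre (3.89 ± 0.27, limma adjusted p = 8.4e-06). It stayed above control in every alternative run, with the Sf1-Cre call lost in 1, centring on the median Sertoli level (0.71, adjusted p = 0.0718). The remaining Aldh1a3 probe sets, 1417642_at and 1427395_a_at, were under log2 4 on all 8 arrays and were not tested, so the change rests on 1 of 3 probe sets.

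Setting the genes against each other within an array removes any constant shift of that array. Aldh1a3 minus Aldh1a1 was -4.98, -5.55, -5.27 and -4.79 in Sf1-Cre and -4.50 and -3.87 on the arrays labelled Dhh-Cre, against -6.85 and -6.90 in control. These values show unequal change and not relative abundance, because probe sets differ in how they respond. Aldh1a2 minus Aldh1a1 was -3.14, -2.97, -2.73 and -2.54 in Sf1-Cre and -3.74 and -3.39 on the arrays labelled Dhh-Cre, against -1.55 and -1.34 in control. Aldh1a3 minus Aldh1a2 was -1.84, -2.57, -2.54 and -2.24 in Sf1-Cre and -0.75 and -0.48 on the arrays labelled Dhh-Cre, against -5.30 and -5.57 in control.

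In all 3 pairs no group overlapped another. Relative to Aldh1a1, Aldh1a3 was higher than in control by 1.73 in Sf1-Cre and by 2.69 on the arrays labelled Dhh-Cre, while Aldh1a2 differed by -1.40 in Sf1-Cre and by -2.12 on the arrays labelled Dhh-Cre. Relative to Aldh1a2, Aldh1a3 was higher by 3.13 in Sf1-Cre and by 4.81 on the arrays labelled Dhh-Cre. Exact permutation tests, two-sided, gave the smallest p these designs allow, 0.133 for 4 arrays against 2 and 0.333 for 2 against 2 (adjusted over the 9 tests, 0.2 and 0.333), so none could reach 0.05.

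**Figure D2:**
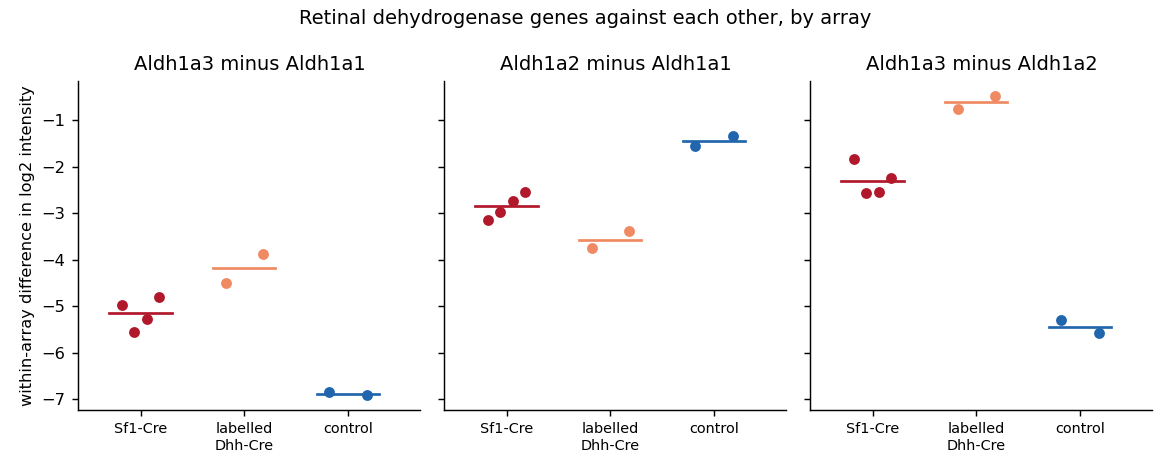
Within-array difference in log2 intensity (vertical axis) between pairs of retinal dehydrogenase genes, with Sf1-Cre left, arrays labelled Dhh-Cre in the middle and control right; points are arrays and bars are group means. Aldh1a3 minus Aldh1a2 averaged -2.30 in Sf1-Cre, -0.62 on the arrays labelled Dhh-Cre and -5.43 in control.

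Markers of testis cell types also moved on the deposited scale. Of 18 tested Sertoli markers, 13 rose and 3 fell in Sf1-Cre (median 0.82) and 15 rose on the arrays labelled Dhh-Cre (median 1.66). Their summed intensity was 35600 to 41400 in Sf1-Cre, 52700 to 52900 on the arrays labelled Dhh-Cre and 27700 to 29200 in control. Sox9, which specifies Sertoli cells, was higher by 0.82 in Sf1-Cre, where its arrays overlapped control, and by 2.78 on the arrays labelled Dhh-Cre. The 3 Sertoli markers that fell in Sf1-Cre were Tsx (-6.22), Rhox5 (-4.58) and Cst9 (-1.16). The Sertoli marker Amh was under the test level. A second measure took, on each array, the median deviation of the Sertoli genes from their own means, and it need not equal the median of their differences between groups. Relative to it, Aldh1a1 was at 0.36 in Sf1-Cre and -0.36 on the arrays labelled Dhh-Cre, Aldh1a2 at -1.04 and -2.49, and Aldh1a3 at 2.09 and 2.33, in the same order of groups.

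Among the other somatic lists, granulosa markers had a median of 3.02 in Sf1-Cre and 3.00 on the arrays labelled Dhh-Cre. In Sf1-Cre 10 of 12 tested were higher, but only 3 of the 12 had a control mean at the floor or above. Of those 3, Inha rose by 2.80 and Amhr2 by 0.92 in Sf1-Cre. Irx5 fell by 5.46 in Sf1-Cre and by 5.55 on the arrays labelled Dhh-Cre. The other granulosa markers passed the filter on low values only with the Cre arrays, so rises among them were partly set by it. Their summed intensity was 14500 to 18100 in Sf1-Cre, 12700 to 13900 on the arrays labelled Dhh-Cre and 4150 to 4270 in control. Macrophage markers were all higher in both comparisons, 10 of 10, with medians of 3.89 and 3.10, and so were the 6 tested fibroblast markers, with medians of 3.43 and 3.71. Of the 10 macrophage markers, 7 had a control mean at the floor or above. The 5 Leydig markers had medians of 1.78 and 1.54. Summed macrophage intensity was 26400 to 29600 in Sf1-Cre and 21800 to 21900 on the arrays labelled Dhh-Cre, against 4950 to 5300 in control, and for Leydig markers it was 19300 to 28500 in Sf1-Cre and 18200 to 22900 on the arrays labelled Dhh-Cre, against 5660 to 6430 in control. Summed fibroblast intensity was 11600 to 12700 in Sf1-Cre and 11400 to 14100 on the arrays labelled Dhh-Cre, against 1550 to 1640 in control. The 6 tested endothelial markers, all higher, had medians of 3.00 and 2.50, but only 2 of the 6 had a control mean at the floor or above. The rest passed the filter on low values only with the Cre arrays, where they are high, so their direction was partly set by it. The 7 peritubular markers, which include smooth muscle genes, had medians of 1.24 and 2.17. Summed endothelial intensity was 930 to 1500 in Sf1-Cre and 1380 to 1560 on the arrays labelled Dhh-Cre, against 229 to 235 in control, with Pecam1 and Cdh5 under the test level. Summed peritubular intensity was 6170 to 7010 in Sf1-Cre and 9210 to 10700 on the arrays labelled Dhh-Cre, against 5900 to 5950 in control. Of the 7 peritubular markers, 5 rose and 1 fell in Sf1-Cre, and 6 rose and 1 fell on the arrays labelled Dhh-Cre. Actg2, which fell, averaged 7.1 in Sf1-Cre, 7.88 on the arrays labelled Dhh-Cre and 11.91 in control. It had the highest control mean of that list, so the control sum leans on it. In Sf1-Cre the Aldh1a1 difference of 1.22 stood beside the peritubular median. The Aldh1a3 difference of 2.95 stood beside the endothelial and granulosa medians, which were both partly set by the filter on low values. On the arrays labelled Dhh-Cre, Aldh1a1 at 1.20 was below each of these somatic medians and Aldh1a3 at 3.89 above each of them. These are descriptions and not tests of cell source.

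Germ cell markers went the other way. All 16 spermatid markers fell in Sf1-Cre (median -5.05) and 15 of 16 fell on the arrays labelled Dhh-Cre (median -6.57), with a summed intensity of 1530 to 7130 in Sf1-Cre, 1390 to 12900 on the arrays labelled Dhh-Cre and 84500 to 91600 in control. Spermatocyte markers fell in 9 of 14 cases in Sf1-Cre (median -0.85, summed intensity 10900 to 22300) and in 7 of 14 on the arrays labelled Dhh-Cre (median -1.12, 11600 to 14700), against 29100 to 31800 in control. The Aldh1a2 differences were -0.19 in Sf1-Cre and -0.93 on the arrays labelled Dhh-Cre. Relative to the per-array median deviation of each list, Aldh1a2 was at 0.85 in Sf1-Cre and 0.03 on the arrays labelled Dhh-Cre for spermatocyte genes, at 0.44 and -1.37 for spermatogonial genes, and at 4.91 and 5.74 for spermatid genes. The part of cell makeup in these Aldh1a results was not tested.

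**Figure D3:**
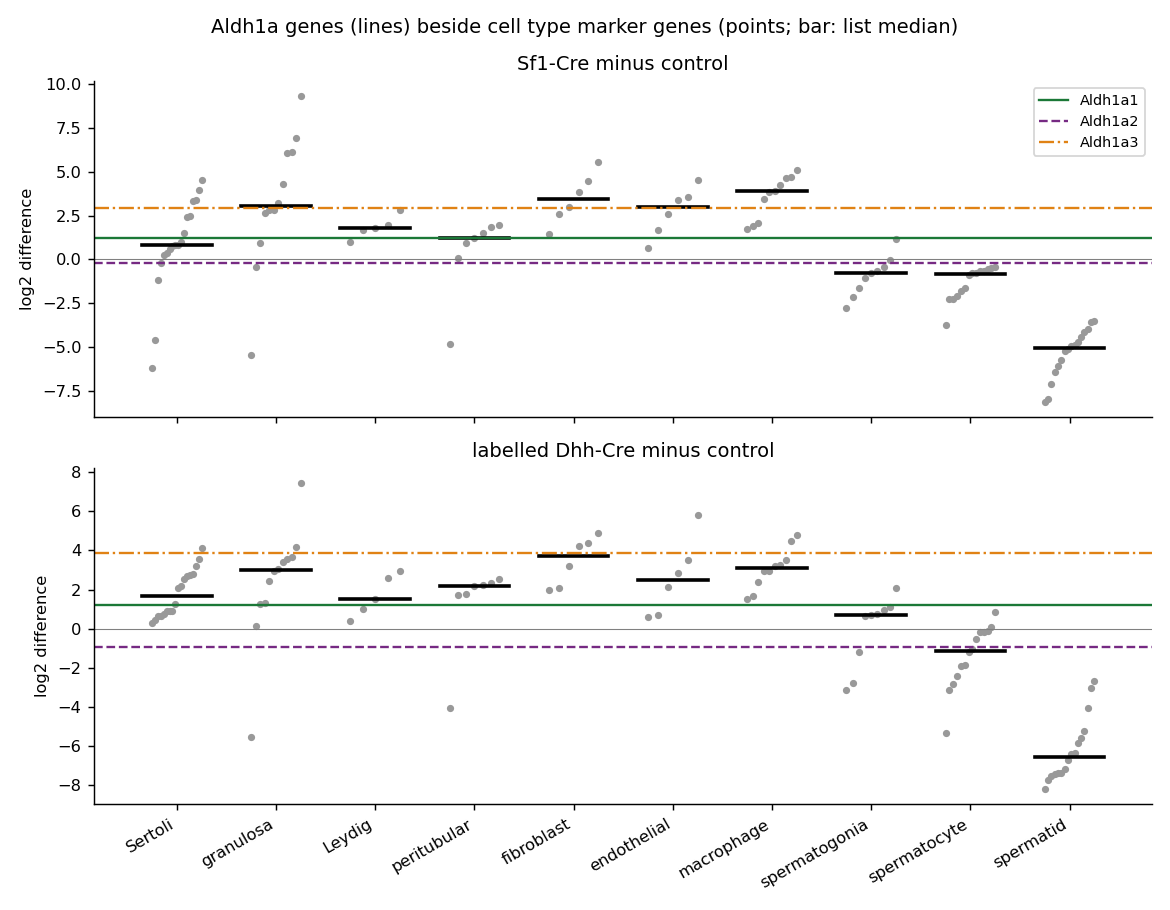
Difference in mean log2 intensity from control (vertical axis) for marker genes of 10 cell types (points, with bars for list medians), Sf1-Cre above and arrays labelled Dhh-Cre below; lines mark Aldh1a1, Aldh1a2 and Aldh1a3. The Aldh1a3 line, at 2.95 and 3.89, lies beside the endothelial and granulosa medians above and over all 7 somatic medians below, and the spermatid medians lie at -5.05 and -6.57. Most endothelial and granulosa markers passed the filter on low values only with the Cre arrays.

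Dhrs3 encodes an enzyme that returns retinal to retinol and is known to be induced by retinoic acid. Its probe set (1448390_a_at) read 9.80, 10.13, 10.29 and 10.55 in Sf1-Cre and 9.71 and 10.10 on the arrays labelled Dhh-Cre, against 6.11 and 6.14 in control. All 6 Cre arrays lay over 3 log2 units above both controls. Dhrs3 rose 16.8-fold in Sf1-Cre (4.07 ± 0.23, limma adjusted p = 1.84e-06) and 13.8-fold on the arrays labelled Dhh-Cre (3.78 ± 0.26, limma adjusted p = 7.51e-06). Only 2.08% of tested probe sets had a larger difference in Sf1-Cre and 1.86% on the arrays labelled Dhh-Cre. The rise passed in all 21 alternatives of each comparison, ranging from 1.83 to 4.22 in Sf1-Cre and from 1.80 to 3.98 on the arrays labelled Dhh-Cre. Sf1-Cre minus the arrays labelled Dhh-Cre was 0.29 ± 0.23 (limma adjusted p = 0.406). Relative to the per-array median deviation of macrophage genes, Dhrs3 was at 0.25 in Sf1-Cre and 0.60 on the arrays labelled Dhh-Cre. In the same order it was at 0.59 and 0.24 for fibroblast genes and at 3.21 and 2.22 for Sertoli genes. The part of cell makeup in the Dhrs3 rise was not tested.

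Stra6 encodes the membrane receptor that takes up retinol from its serum carrier RBP4. It read 2.50, 2.47, 2.74 and 2.65 in Sf1-Cre and 5.38 and 5.07 on the arrays labelled Dhh-Cre, against 3.33 and 3.81 in control (1422723_at). Only the arrays labelled Dhh-Cre reached the floor, and Stra6 passed the filter on low values through them alone. Stra6 was at least 2.33-fold higher on the arrays labelled Dhh-Cre than in control (1.65 ± 0.22, limma adjusted p = 0.000186), although not under centring on median housekeeping (0.02) or Sertoli (-0.33) levels. In Sf1-Cre the fitted difference was -0.98 ± 0.19 (limma adjusted p = 0.00161), but both means lie under the floor, so no fold is given, and the difference is 0 when values under log2 4 are set to 4. Rbp4 itself rose by 0.68 in Sf1-Cre and by 1.77 on the arrays labelled Dhh-Cre. Centred on the median of housekeeping gene changes, it was at -0.17 in Sf1-Cre and did not pass. The Sf1-Cre rise was lost without control replicate 2 (0.53, adjusted p = 0.087) and was a passing fall when centred on the median housekeeping level (-1.02).

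Tgm2 encodes a protein cross-linking enzyme long used as a readout of retinoic acid in cultured cells. Its brightest probe set (1437277_x_at) read 12.06, 12.10, 12.22 and 12.22 in Sf1-Cre and 12.66 and 12.63 on the arrays labelled Dhh-Cre, against 10.04 and 10.06 in control. The 3 groups did not overlap. This probe set rose 4.29-fold in Sf1-Cre (2.10 ± 0.13, limma adjusted p = 3.39e-06) and 6.04-fold on the arrays labelled Dhh-Cre (2.60 ± 0.15, limma adjusted p = 4.01e-06). The 5 tested Tgm2 probe sets were all higher than control but differed in size, from 1.08 at 1426004_a_at to 3.47 at 1417500_a_at in Sf1-Cre, and from 1.99 to 4.45 at the same probe sets on the arrays labelled Dhh-Cre. Probe set 1417500_a_at read 9.71, 9.61, 10.01 and 9.94 in Sf1-Cre and 11.02 and 10.57 on the arrays labelled Dhh-Cre, against 6.36 and 6.33 in control. Probe sets whose names carry _x_ can also bind other transcripts. The sixth, 1438942_x_at, stayed between 0.98 and 1.40 and was not tested. In Sf1-Cre, 1426004_a_at and 1455900_x_at reversed under centring on the median housekeeping level (-0.62 and -0.07), whereas 1417500_a_at passed in all 20 alternatives. Relative to the per-array median deviation of macrophage genes, the brightest probe set was at -1.72 in Sf1-Cre and -0.59 on the arrays labelled Dhh-Cre. In the same order it was at -1.38 and -0.95 for fibroblast genes and at 1.25 and 1.03 for Sertoli genes. The part of cell makeup in the Tgm2 rise was not tested.

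Stra8 encodes a factor needed for meiosis, is induced by retinoic acid, and is known as a gene that DMRT1 represses in mouse spermatogonia. It read 9.31, 9.50, 9.48 and 9.33 in Sf1-Cre and 10.80 and 10.21 on the arrays labelled Dhh-Cre, against 7.94 and 7.76 in control (1420568_at). The groups did not overlap, and the arrays labelled Dhh-Cre had the highest Stra8. Dmrt1 was also highest on these arrays, but both genes were read over whole testes, and a link between them was not tested. Stra8 rose 2.94-fold in Sf1-Cre (1.55 ± 0.19, limma adjusted p = 0.000119) and 6.31-fold on the arrays labelled Dhh-Cre (2.66 ± 0.22, limma adjusted p = 1.68e-05). Centred on the median housekeeping level, the Sf1-Cre difference was -0.14, and on the median of housekeeping gene changes it was 0.70 and passed (adjusted p = 0.00621). On the arrays labelled Dhh-Cre the difference fell short of passing only when centred on the median Sertoli level (0.67, adjusted p = 0.074).

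Other genes of early germ cells were mixed. Of 9 tested spermatogonial markers, 1 rose and 6 fell in Sf1-Cre (median -0.79, summed intensity 2000 to 2930), and 4 rose and 3 fell on the arrays labelled Dhh-Cre (median 0.70, summed intensity 3610 to 3760), against 5400 to 5460 in control. The 1 that rose in Sf1-Cre was Zbtb16, a gene of undifferentiated spermatogonia, by 1.19. It was read at 1 of its 3 probe sets, 1419874_x_at, whose name carries _x_. Gfra1, of the same list, averaged 3.73 in Sf1-Cre, under the floor, against 6.49 in control. Rec8, a meiotic cohesin gene that also responds to retinoic acid, read 6.14, 6.15, 6.15 and 6.16 in Sf1-Cre and 7.88 and 6.88 on the arrays labelled Dhh-Cre, against 9.42 and 9.61 in control. Rec8 fell by 3.36 in Sf1-Cre and by 2.13 on the arrays labelled Dhh-Cre. The part of germ cell number in the Stra8 difference was not tested.

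The Stra8 promoter is shown because DMRT1 and retinoic acid receptors are both known to act on it in mice. The run is the 250 bases before the gene start in RefSeq (GRCm38.p6, chr6:34920698-34920947, plus strand), 5′ to 3′, with motif matches in capitals.
Stra8: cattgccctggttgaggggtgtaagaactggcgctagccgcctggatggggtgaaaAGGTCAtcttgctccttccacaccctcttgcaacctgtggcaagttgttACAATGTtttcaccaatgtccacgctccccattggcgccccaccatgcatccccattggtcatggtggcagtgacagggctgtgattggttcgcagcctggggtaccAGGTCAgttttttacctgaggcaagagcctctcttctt

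The window holds AGGTCA, the element that retinoic acid receptors bind in pairs, at 194 to 189 and at 38 to 33 bases before the start. It also holds ACAATGT, the core bound by DM-domain proteins such as DMRT1, at 145 to 139 bases before the start. Both strands were searched in windows of 300 bases that run past the gene start, and these matches do not overlap. Of 32851 RefSeq windows, 16.3% held AGGTCA and 2.96% held ACAATGT. A related element, AGTTCA, was in 14% of windows. RefSeq windows were found for 5 of the 7 genes, with 1 start each for Stra8 and Aldh1a2, 2 for Aldh1a1, 3 for Dhrs3 and 4 for Stra6. Among the members AGTTCA matched in 1 of the 4 Stra6 windows, at 16 to 21 bases past that start, and none of the 3 Dhrs3 windows held a motif searched. A match describes letters and not a binding site.

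Sf1-Cre set against the arrays labelled Dhh-Cre asks whether the retinoid changes differed with the Cre line. Of the 11 tested member probe sets, 7 were lower in Sf1-Cre, 0 were higher by limma (1, Aldh1a2, at an unadjusted p under 0.05) and 4 did not pass, where 21.4% of all tested probe sets passed (10.2% higher and 11.2% lower) and 45.3% did not overlap. Aldh1a3 was 1.92-fold lower in Sf1-Cre (-0.94 ± 0.24, limma adjusted p = 0.0273), Stra8 2.15-fold lower (-1.10 ± 0.19, limma adjusted p = 0.00667) and Stra6, which entered only through the arrays labelled Dhh-Cre, at least 2.33-fold lower (fitted -2.63 ± 0.19, limma adjusted p = 0.000184). Tgm2 was lower at 4 of 5 probe sets, at -0.49 to -0.97, with 1455900_x_at at -0.49 and not passing (adjusted p = 0.156). The Sertoli list moved the same way, with 10 of 18 lower, 2 higher and a median of -0.58. So did the spermatogonial list, with 5 of 9 lower and 1 higher (median -0.99), and the peritubular list, with 3 of 7 lower and 0 higher (median -0.67). Granulosa markers went the other way, with 5 of 12 higher, 0 lower and a median of 0.81. So did spermatid markers (4 of 16 higher, 1 lower, median 1.61), macrophage markers (3 of 10 higher, 0 lower, median 0.42) and endothelial markers (2 of 6 higher, 1 lower, median 0.50). Leydig, fibroblast and spermatocyte lists had medians of 0.43, -0.05 and -0.20.

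The member calls between the Cre groups rested on 2 arrays labelled Dhh-Cre. All 4 Sf1-Cre arrays were under the floor for Stra6, so its difference is a bound, and with values under log2 4 set to 4 it was -1.22. Each of the 4 Tgm2 calls was lost without array 1 labelled Dhh-Cre (adjusted p = 0.0521 to 0.169) and without the 3 arrays high in Spink8 (0.0599 to 0.351). The Tgm2 call at 1426004_a_at was kept in 8 of 20 alternatives and that at 1437277_x_at in 9 of 21. The Stra8 call was lost without array 1 labelled Dhh-Cre (-0.81, adjusted p = 0.0573) and without the 3 arrays high in Spink8 (-0.80, adjusted p = 0.156), and the Aldh1a3 call was lost without array 2 labelled Dhh-Cre (-0.64, adjusted p = 0.174), without Sf1-Cre replicate 2 (-0.83, adjusted p = 0.0553), without Sf1-Cre replicate 3 (-0.92, adjusted p = 0.0631) and without the Spink8 arrays (-1.23, adjusted p = 0.122). It also missed when only these 2 groups entered the fit (-0.94, adjusted p = 0.0503). With arrays centred on the per-array median deviation of the Sertoli genes, Stra8 was at -0.40 and Aldh1a3 at -0.24, and neither passed.

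**Figure D4:**
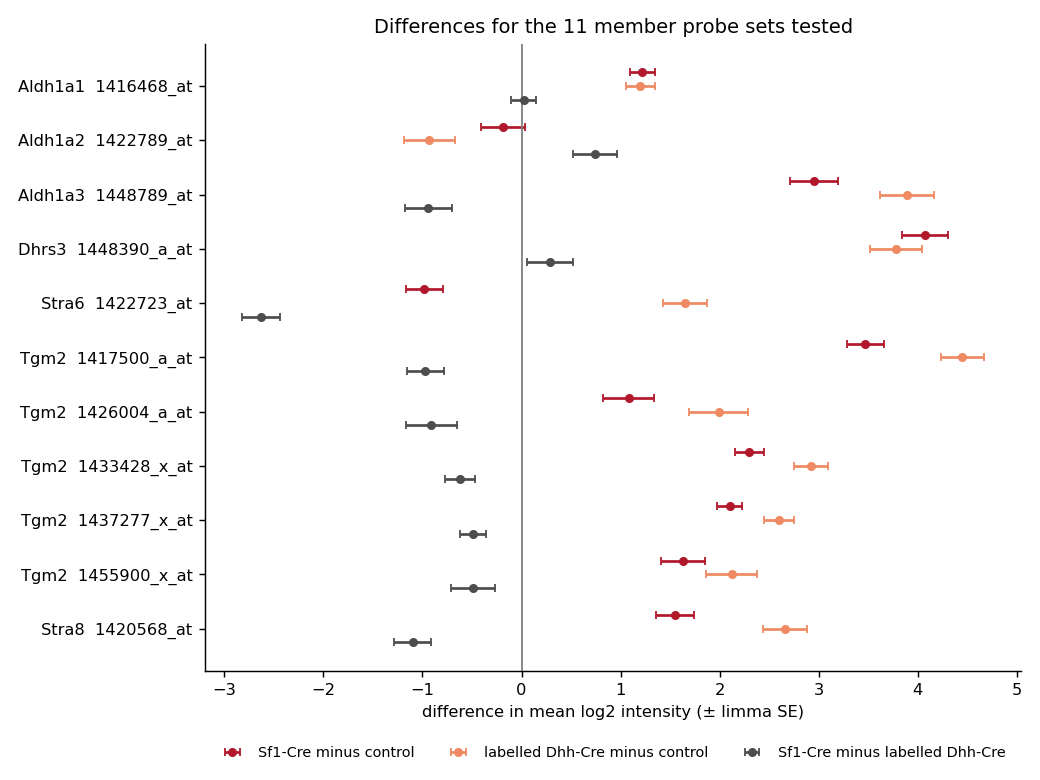
Difference in mean log2 intensity (horizontal axis, with limma SE) for the 11 tested probe sets, as Sf1-Cre minus control, arrays labelled Dhh-Cre minus control, and Sf1-Cre minus arrays labelled Dhh-Cre. Dhrs3 lies at 4.07 and 3.78 against control, and the Stra6 difference between the Cre groups rests on Sf1-Cre values under the floor; Aldh1a1, Stra8 and part of Tgm2 in Sf1-Cre change sign when centred on the median housekeeping level.

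Other genes of retinoid handling were read from a list of 48, of which 40 were on the array under a single symbol and 30 were tested. In Sf1-Cre 18 rose, 7 fell and 5 did not pass (median 0.73), and on the arrays labelled Dhh-Cre 17 rose, 6 fell and 7 did not pass (median 0.95), shares close to the 77.6% and 78.0% of all tested probe sets. Between the Cre groups 4 were higher in Sf1-Cre, 6 were lower and 20 did not pass, against 21.4% passing over the array. With arrays centred on the median of housekeeping gene changes, 8 rose and 7 fell in Sf1-Cre.

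Of the 10 tested retinol and retinal oxidoreductase genes, 6 rose and 3 fell in Sf1-Cre. Adh1, an alcohol dehydrogenase gene able to oxidize retinol, read 12.00, 12.02, 12.33 and 12.31 in Sf1-Cre and 11.39 and 10.80 on the arrays labelled Dhh-Cre, against 7.33 and 7.96 in control. It rose 22.9-fold in Sf1-Cre (4.52 ± 0.24, limma adjusted p = 1.66e-06) and 10.9-fold on the arrays labelled Dhh-Cre (3.45 ± 0.28, limma adjusted p = 1.62e-05). Rdh10, the retinol dehydrogenase gene needed for embryonic retinoic acid synthesis in mice, rose by 1.24 in Sf1-Cre and by 2.29 on the arrays labelled Dhh-Cre, and its other tested probe set by 2.06 and 3.22. Centred on the median housekeeping level, the first Rdh10 probe set was at -0.46 in Sf1-Cre, passing as a fall. On the median of housekeeping gene changes it was at 0.38 and did not pass. Rdh13, a mitochondrial retinal reductase gene, and Adh5, a formaldehyde-oxidizing dehydrogenase gene, also rose in both, by 2.68 and 1.95 in Sf1-Cre.

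Oxidoreductase genes also fell. Rdh11 read 9.34, 8.82, 8.38 and 7.82 in Sf1-Cre and 6.03 and 7.17 on the arrays labelled Dhh-Cre, against 10.86 and 10.73 in control. It fell 4.61-fold in Sf1-Cre (-2.20 ± 0.44, limma adjusted p = 0.00191) and 18.3-fold on the arrays labelled Dhh-Cre (-4.20 ± 0.51, limma adjusted p = 0.000115). Adh7, a retinol-active alcohol dehydrogenase gene, was at least 6.69-fold lower in both comparisons. Adh4 fell by 2.98 in Sf1-Cre and stood at -0.28 without passing on the arrays labelled Dhh-Cre, a difference between the Cre groups of -2.69 (adjusted p = 0.0332). That call was lost without either array labelled Dhh-Cre (adjusted p = 0.132 and 0.15), without either control (0.0604 and 0.0603), without Sf1-Cre replicate 4 (0.0536) and with only the 2 groups fitted (0.0609).

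Among binding and storage genes, Crabp1, which encodes a cytosolic retinoic acid binding protein, read 9.33, 10.01, 9.99 and 9.85 in Sf1-Cre and 11.69 and 11.31 on the arrays labelled Dhh-Cre, against 8.82 and 8.92 in control. It rose by 0.93 in Sf1-Cre and by 2.63 on the arrays labelled Dhh-Cre, and the Cre groups differed by -1.71 (adjusted p = 0.00243). Fabp5, which encodes a fatty acid binding protein that also carries retinoic acid, rose by 0.78 in Sf1-Cre, and by 3.17 at its other probe set. Rbp2, which encodes a cellular retinol carrier, fell by 0.54 near the floor, a call lost without the Spink8 arrays (-0.44, adjusted p = 0.1). Centred on the median housekeeping level, Crabp1 was at -0.77 and Fabp5 at -0.91 in Sf1-Cre, both passing as falls. On the median of housekeeping gene changes they were at 0.07 and -0.07, and neither passed. Bco1, which encodes the enzyme that splits beta-carotene into retinal, read 2.81, 2.56, 2.34 and 2.26 in Sf1-Cre and 2.19 and 2.56 on the arrays labelled Dhh-Cre, against 8.02 and 7.95 in control. It was at least 15.9-fold lower in both comparisons (limma adjusted p = 3.38e-07 in Sf1-Cre and 1.13e-06 on the arrays labelled Dhh-Cre). Dgat1, which encodes an acyltransferase able to esterify retinol, fell by 0.62 in Sf1-Cre, and its other probe set was at -0.06. The Dgat1 call was lost without control replicate 1 (-0.56, adjusted p = 0.0949) and without control replicate 2 (-0.69, adjusted p = 0.0508).

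Cyp26b1, which encodes a retinoic acid degrading enzyme, was the 1 tested of its family. It read 4.06, 4.27, 4.36 and 4.46 in Sf1-Cre and 4.97 and 5.88 on the arrays labelled Dhh-Cre, against 3.71 and 4.11 in control. Cyp26b1 was at least 2.69-fold higher on the arrays labelled Dhh-Cre (1.52 ± 0.31, limma adjusted p = 0.00195) and stood at 0.38 ± 0.26 in Sf1-Cre (limma adjusted p = 0.22). The Cre groups differed by -1.14 (adjusted p = 0.0199), a call lost without array 2 labelled Dhh-Cre (-0.69, adjusted p = 0.114) and without the Spink8 arrays (-1.52, adjusted p = 0.0519). Against control, the arrays labelled Dhh-Cre were at -0.11 when centred on the median housekeeping level. On the median of housekeeping gene changes they were at 0.73, which did not pass.

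On the deposited scale, all 5 tested receptor and coregulator genes rose in both comparisons at their brightest probe set. Of all tested probe sets, 45.9% were higher in Sf1-Cre and 49.1% on the arrays labelled Dhh-Cre. Another tested probe set of 1 of these genes, Rxra, fell by 4.83 in Sf1-Cre and by 4.95 on the arrays labelled Dhh-Cre. In Sf1-Cre, Nrip1, a corepressor gene induced by retinoic acid, rose by 2.58, the receptor genes Rxrb and Rarg by 1.23 and 1.10, and the coactivator gene Ncoa1 by 0.47. Centred on the median housekeeping level, Rxrb was at -0.47, Rarg at -0.60 and Ncoa1 at -1.23 in Sf1-Cre, each passing as a fall. Ncoa1 was then at -0.96 on the arrays labelled Dhh-Cre, also passing as a fall. On the median of housekeeping gene changes, Rxrb was at 0.37, Rarg at 0.25 and Ncoa1 at -0.38 in Sf1-Cre. Ncoa1 was at -0.11 on the arrays labelled Dhh-Cre under that centring, and none of these passed. Without the Spink8 arrays, the calls were lost for Ncoa1 in Sf1-Cre (0.45, adjusted p = 0.0876) and for Rarg on the arrays labelled Dhh-Cre (0.95, adjusted p = 0.065), and without control replicate 1 for Ncoa1 (0.40, adjusted p = 0.109) and Rarg (0.93, adjusted p = 0.0554) in Sf1-Cre. The other Ncoa1 probe set was at 0.02 in Sf1-Cre (adjusted p = 0.936). Rxra, a partner of the retinoic acid receptors, had probe sets that disagreed. At 1454773_at it rose by 2.24 in Sf1-Cre and by 2.20 on the arrays labelled Dhh-Cre, while 1425762_a_at read 2.82, 2.53, 2.53 and 2.61 in Sf1-Cre and 2.38 and 2.63 on the arrays labelled Dhh-Cre, against 7.18 and 7.74 in control. Rara, Rarb and Rxrg were under the test level.

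Among 5 tested retinoic acid responsive genes outside the members, Rarres2, Kit, Bhlhe40 and Rarres1 rose in Sf1-Cre and Rec8 fell. Only 3 of the 5 had a control mean at the floor or above. Kit and Rarres1 passed the filter on low values through Cre arrays alone, so their rises were partly set by that filter. Rarres1 was at -0.21 in Sf1-Cre when centred on the median housekeeping level, and at 0.63 on the median of housekeeping gene changes, neither of which passed. Bhlhe40 rose 6.02-fold in Sf1-Cre and 5.39-fold on the arrays labelled Dhh-Cre. Rarres2 rose 8.63-fold and 7.43-fold at its brightest probe set, while 1425091_at was at -0.48 in Sf1-Cre and -1.34 on the arrays labelled Dhh-Cre. Kit, a receptor gene of differentiating spermatogonia and Leydig cells, read 5.32, 6.01, 6.03 and 6.64 in Sf1-Cre and 3.61 and 3.54 on the arrays labelled Dhh-Cre, against 3.40 and 3.03 in control at 1452514_a_at. It was at least 3.99-fold higher in Sf1-Cre there, but 1415900_a_at was at -0.77 and did not pass (adjusted p = 0.0822).

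**Figure D5:**
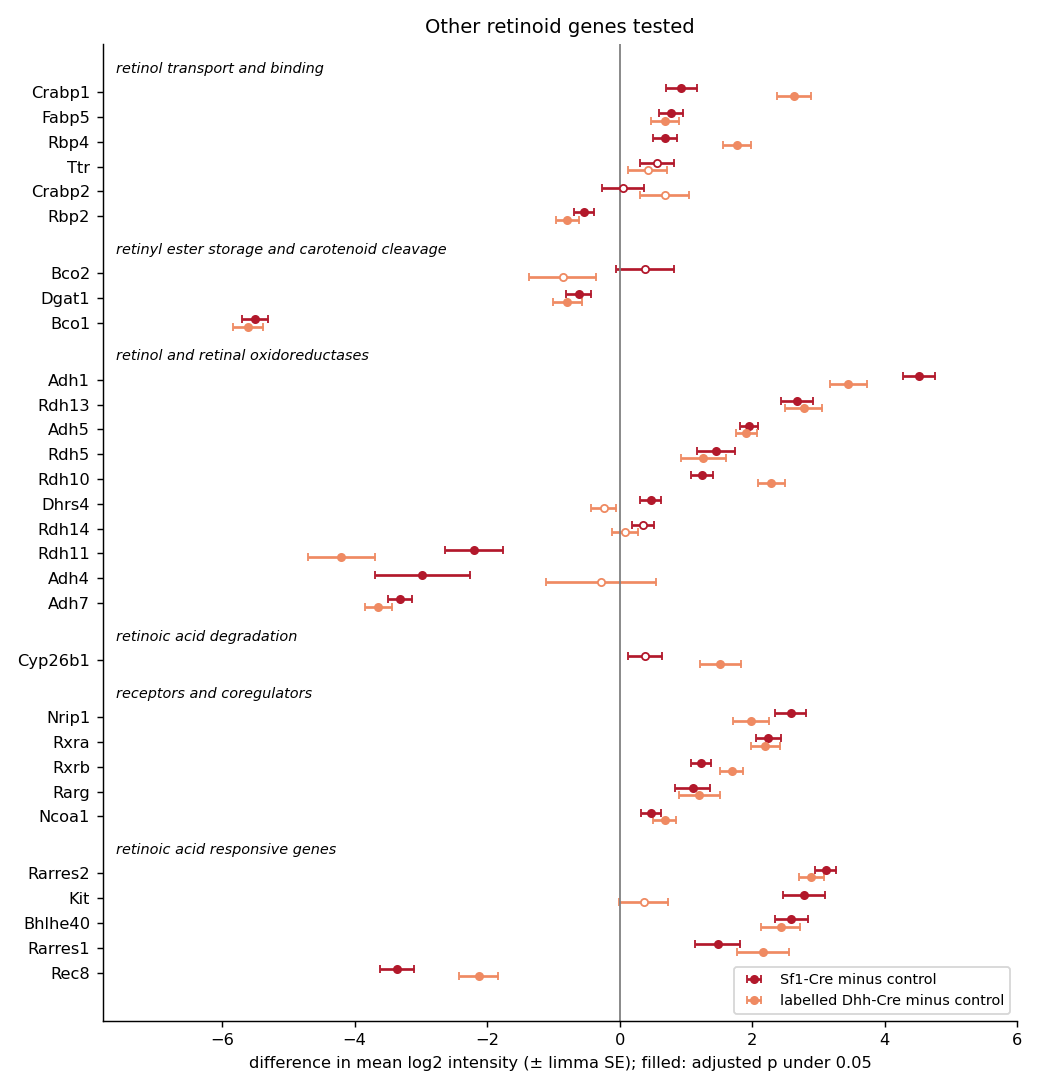
Difference in mean log2 intensity from control (horizontal axis, with limma SE) for the 30 other retinoid genes tested, grouped by role; dark points are Sf1-Cre minus control, light points are arrays labelled Dhh-Cre minus control, and filled points passed. Adh1 lies highest in both, at 4.52 and 3.45, and Bco1 lowest, at -5.50 and -5.61.

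Genes with the profile most like each member were found among 12729 others by the root mean square difference of centred log2 values over the 8 arrays. They are given as a description. Aldh1a1 was most like Cat, Slc39a1 and Atp6v1c1 (0.03 to 0.05), and Aldh1a2 was most like Setd1b, Tmem214 and Fbxo6 (0.17 to 0.19). Aldh1a3 was most like Nxnl2, Plekha7 and Mras (0.21 to 0.23), Dhrs3 like Ptpn18, Vamp8 and Pdlim2 (0.08 to 0.10), and Tgm2 like Map2k4, Jak2 and Nt5c3 (0.07 to 0.11). Stra6 was most like Rab11fip4, Dpysl5 and B4galnt1 (0.20 to 0.22), and Stra8 like Rhou, Abcc9 and Zc3h7b (0.12 to 0.15).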

How the data were processed

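RNA was hybridized to 8 one-colour arrays, and the authors deposited 1 intensity per probe set on a linear scale. Per the submitters' processing notes the intensity values were made with GCRMA. Version and parameters: not given in the sources used here. Background correction and normalization of that kind act across whole arrays, so a broad shift in RNA content can move every difference. Log2 was taken here. After leaving out 64 control probe sets, a probe set was tested with at least 2 arrays at log2 4 (intensity 16) or above, which gave 25761. Symbols came from the platform annotation (34958 probe sets with 1 symbol, 932 with several, 9211 with none listed), updated by Entrez identifier for 34754.

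Group means were fitted to all 8 arrays with limma 3.58.1 in R 4.3.3 (5 residual and 3.01 prior degrees of freedom), and p-values were adjusted by Benjamini and Hochberg over all tested probe sets. Only the limma step was tested on simulated data, in which far fewer probe sets changed than passed against control here. List genes were read by their probe set with the highest mean. Where 1 group's mean was under log2 4, the fold was taken against 4 and printed as at least that large. Differences between Aldh1a genes within arrays had exact permutation tests in scipy 1.17.1. Figures used Python 3.11.15 and matplotlib 3.10.9.

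The members and gene lists were chosen with earlier results of these data known. Named genes are the members, per role up to 3 rising and 3 falling retinoid genes with the lowest p in Sf1-Cre, genes needed to spell out small counts, the 3 most alike genes per member, the first 2 of each marker list where a result needed them, Dmrt1 and Spink8. Values of single arrays were given for genes of these after their results were seen. The numbers of the labels were checked as pairs: deviations of same-numbered arrays correlated at -0.177 to 0.258, so the numbers were not taken as pairs. Alternatives were other scalings, filters, moderation, samples in the fit, probe set rules, a replicate block and leaving out each array. Leaving out arrays high in Spink8 and centring on list gene changes were added after seeing the data.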

Additional observations from a re-analysis of the deposited data

Results flagged for a closer look

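The difference between the Cre groups was tested directly and passed for 7 member probe sets, each given as Sf1-Cre minus the arrays labelled Dhh-Cre on the log2 scale. It was -2.63 for Stra6, -1.10 for Stra8 and -0.94 for Aldh1a3. For Tgm2 it was -0.97 at 1417500_a_at, -0.91 at 1426004_a_at, -0.62 at 1433428_x_at and -0.49 at 1437277_x_at. The Stra6 value rests on Sf1-Cre arrays under the floor. The 4 Tgm2 calls and the Stra8 call were each lost without array 1 labelled Dhh-Cre and without the 3 arrays high in Spink8. The Aldh1a3 call was lost without the other array labelled Dhh-Cre, without the 3 arrays high in Spink8 and in further alternatives. The arrays labelled Dhh-Cre are also those with Dmrt1 above control, and the part of that in these differences was not tested.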

How the results depend on the processing

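Of 21 alternatives per comparison (17 for Stra6, 20 for 4 Tgm2 probe sets), Dhrs3 passed against control in all, and so did Tgm2 at 1417500_a_at. Scaling changed most. Centred on the median housekeeping level, 16.1% of calls in Sf1-Cre were higher, against 59.2% as reported, and 18.5% on the arrays labelled Dhh-Cre, against 63.0%; with the median Sertoli level these were 8.52% and 10.6%, and medians of all probe sets were -1.34, -1.06, -1.88 and -1.42 in that order. Between the Cre groups 47.8% were higher as reported, 39.2% and 28.8% under those centrings. Under housekeeping levels, Sf1-Cre minus control reversed for Aldh1a1 (-0.48), Tgm2 1426004_a_at (-0.62), Tgm2 1455900_x_at (-0.07) and Stra8 (-0.14), and the arrays labelled Dhh-Cre minus control for Aldh1a1 (-0.44). Under Sertoli levels, Sf1-Cre minus control reversed for Aldh1a1 (-1.02), Tgm2 1426004_a_at (-1.16), 1437277_x_at (-0.14) and 1455900_x_at (-0.61) and Stra8 (-0.68), and the arrays labelled Dhh-Cre minus control for Aldh1a1 (-0.79) and Stra6 (-0.33). Under changes of the Sertoli genes, chosen after seeing the data, Aldh1a1 reversed on the arrays labelled Dhh-Cre (-0.36), and Sf1-Cre minus the arrays labelled Dhh-Cre reversed for Tgm2 1433428_x_at (0.09) and 1437277_x_at (0.21); 15643 probe sets and 21 retinoid genes then passed between the Cre groups, with 94.6% higher. Retinoid genes passing in Sf1-Cre numbered 15 under changes of housekeeping or of Sertoli genes. By construction, 1 probe set per gene gave fewer calls, 11019 in Sf1-Cre, 10986 on the arrays labelled Dhh-Cre and 3402 between them. Between the Cre groups, probe sets passing ranged over left-out arrays from 1577 to 5995 and retinoid genes from 4 to 11, the lowest probe set count being without array 1 labelled Dhh-Cre (1577), and 939 and 3 passed without the 3 arrays high in Spink8. Without array 2 labelled Dhh-Cre 2940 probe sets passed. Quantile normalization gave 4.60 for Aldh1a3 minus Aldh1a2 on the arrays labelled Dhh-Cre against control; the cause was not tested. With the replicate number as a block, 17515, 19569 and 4541 probe sets and 21, 23 and 7 retinoid genes passed in the 3 comparisons, and Aldh1a3 (-1.09, adjusted p = 0.0569) and Tgm2 1433428_x_at (-0.74) and 1437277_x_at (-0.56) no longer passed between the Cre groups. With 2 controls, signals near the floor, as for Stra6, carry the least information.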
